A study of Homo sapiens with 8 samples.

Results

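The effect of ZMYND8 overexpression was set against the effect of ZMYND8 knockdown, gene by gene, as the contrast (ZMYND8 OE minus parental) minus (ZMYND8 KD minus KD control) in a single model. All 8 of the 8 libraries of the series enter this contrast, and 22619 of the 60659 genes of the count table had enough counts to be tested. A gene with opposite effects was called in both experiments with opposite signs, and a gene moving the same way was called in both with the same sign. By these rules 127 genes had opposite effects and 86 genes moved the same way.

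The cells were SK-N-SH, an established human neuroblastoma line, and the assay was total RNA sequencing. The differentiation agent ATRA (all-trans retinoic acid) was given to all 4 groups, per the labels at 10 μM over 24 h, so no library shows cells without ATRA. In the overexpression experiment, cells carrying FLAG-tagged ZMYND8 were set against parental cells, and both groups were treated with doxycycline (Dox). According to the study's methods the transgene sat in the Dox-inducible lentiviral vector pInducer20 and its carriers were selected with G418. The parental libraries are labelled only as parental cells with ATRA and Dox, so transduction and selection cannot be told apart from ZMYND8 itself in that experiment. In the knockdown experiment, the ZMYND8 KD group was set against its own KD control group, also under ATRA. The methods describe lentiviral short hairpin RNAs against ZMYND8 with puromycin selection, but describe that selection for other lines.

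Each group held 2 libraries, with 38316523 to 56256979 counts on genes, and nothing in the labels says whether the 2 came from separate cultures, so p-values measure the spread between these libraries. Mitochondrially encoded genes took 0.110% to 0.168% of the counts in the 4 libraries of the overexpression experiment and 2.92% to 3.41% in the 4 libraries of the knockdown experiment, so the experiments stood apart from each other. Each effect was therefore taken within its own experiment. Of 10 markers that define neuroblastoma cells 9 were tested, with TH left out for low counts, and the summed level of the 10 was 222.7 to 227 CPM, a count scaled by library size, in the parental libraries, 1141 to 1229 in ZMYND8 OE, 1097 to 1196 in KD control and 889 to 1029 in ZMYND8 KD. Summed endothelial and blood markers reached at most 4 CPM in any library and summed Schwann and glial markers at most 11.1. Less RNA per cell and fewer cells of a type cannot be told apart in such bulk samples.

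ZMYND8 is a chromatin reader whose PHD finger, bromodomain and PWWP domain recognise modified histones, and it works with repressors such as the NuRD complex and the demethylase KDM5C as well as with transcription elongation factors. It can therefore accompany both activation and repression of a gene. Neuroblastoma cells are known to take an adrenergic state, marked by HAND2 and catecholamine enzymes, or a mesenchymal state, marked by matrix and adhesion genes, and retinoic acid moves them along this axis.

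ZMYND8 itself (chr20:47209214-47356889 on GRCh38, minus strand) was read at 3674 and 3532 normalized counts in the parental libraries, 207317 and 209975 in ZMYND8 OE, 3008 and 3082 in KD control, and 1584 and 1591 in ZMYND8 KD. Normalized counts are counts scaled to a common library size. The perturbations were of unequal size. ZMYND8 was 57.9-fold higher in the overexpression experiment (log2 fold change 5.86 ± 0.06, SE) and 1.92-fold lower in the knockdown (log2 −0.94 ± 0.05, adjusted p = 4.18e-08). Here and below, adjusted p is from the quasi-likelihood test of edgeR, adjusted by Benjamini-Hochberg over all genes tested, errors of log2 values are SE, and n is 2 libraries a group. The labels of both experiments therefore hold for ZMYND8, and the counts of the transgene cannot be told apart from those of the endogenous gene.

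For a call, a gene needed a mean above 20 normalized counts, a log2 fold change of size 1 or more, and an adjusted p under 0.05. Overexpression called 2335 genes higher (10.3% of those tested) and 1459 lower (6.45%). Knockdown called 265 genes higher (1.17%) and 129 lower (0.57%). The difference of the 2 effects was called for 4244 genes, of which 2511 had a more positive effect in overexpression (11.1%) and 1733 a more positive effect in knockdown (7.66%). Effects of overexpression were larger in size, with a median absolute log2 fold change of 0.39 against 0.19 in the knockdown among the 17704 tested genes with a mean above 20, while the median SE was 0.09 in both. Most genes of the difference were called in overexpression alone. Of the 4244 genes, 3128 were called in overexpression and not in knockdown, 124 in knockdown and not in overexpression, 158 in both, and 834 in neither. Of these 834, 833 had opposite signs, which the rule all but fixes. Effects of the same sign that are both under the fold threshold cannot differ by that threshold.

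Both experiments called 213 genes, and the signs were opposite in 127 of them (59.6%, Wilson 95% interval 52.9% to 66.0%). That interval treats genes as independent and does not cover the spread between libraries. The share of opposite signs among all 17704 tested genes with a mean above 20 was 56.6%, so the share among called genes lay near that of genes at large. By direction, 27 genes were higher in overexpression and lower in knockdown (0.119% of those tested), 100 were lower in overexpression and higher in knockdown (0.442%), 58 were higher in both (0.256%) and 28 were lower in both (0.124%). Of genes called higher in knockdown and called in overexpression, 63.3% had the opposite sign there, and of genes called lower in knockdown 49.1% did. With the fold threshold dropped and the other thresholds kept, 5310 genes were higher (23.5%) and 5871 lower (26%) in overexpression, and 2604 were higher (11.5%) and 2294 lower (10.1%) in knockdown. By that wider rule 771 genes were higher in overexpression and lower in knockdown (3.41%), 1468 were lower and higher (6.49%), 531 were higher in both (2.35%) and 887 were lower in both (3.92%).

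**Figure D1:**
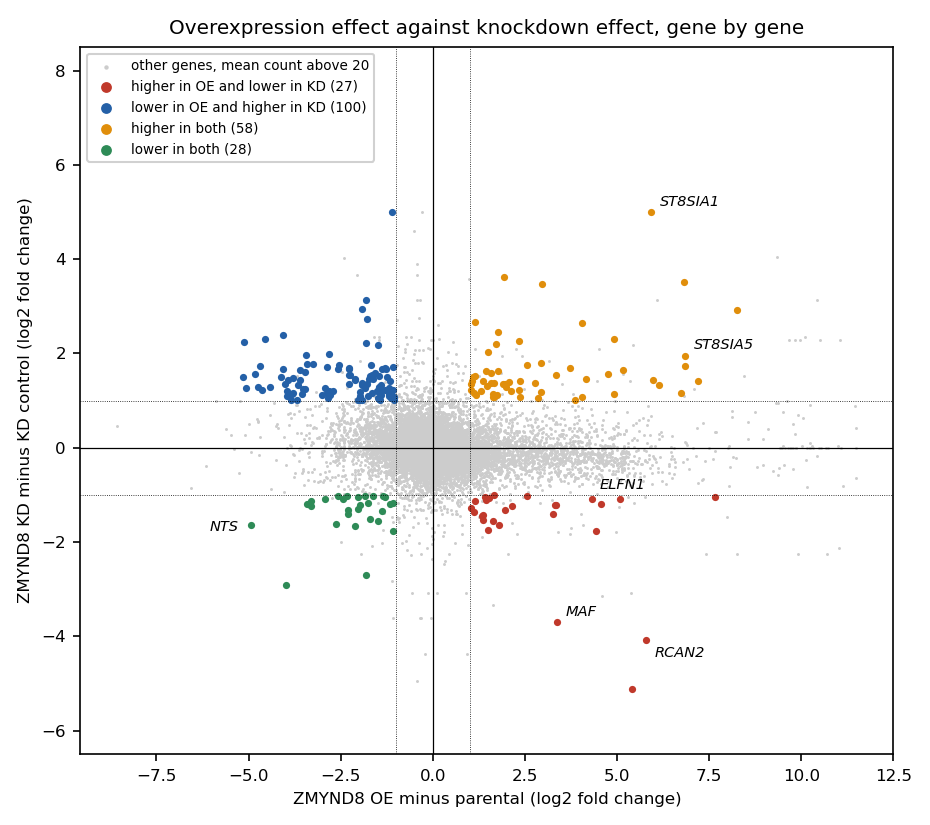
Log2 fold change of ZMYND8 OE over parental (horizontal) against that of ZMYND8 KD over KD control (vertical), 1 point a gene, for tested genes with a mean normalized count above 20 other than ZMYND8. Dotted lines mark a log2 fold change of 1 either way; colours mark the 27, 100, 58 and 28 genes called in both experiments, and the cloud is wider along the overexpression axis.

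The 27 genes that were higher in overexpression and lower in knockdown included 22 protein-coding genes and 4 lncRNAs. The size of this class was the least certain, at 14 genes with DESeq2 and 18 to 37 with any 1 library left out. Their median log2 fold change was 1.95 in overexpression and −1.28 in knockdown, or −1.23 where the gene without any knockdown count is set at its bound of 3 counts per library. Overexpression moved 20 of the 27 further than knockdown did.

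RCAN2, a regulator of the phosphatase calcineurin (chr6:46220736-46491972), gave the clearest reversal. It was read at 4.76 and 9.78 normalized counts in the parental libraries, 393 and 446 in ZMYND8 OE, 135 and 131 in KD control, and 6.76 and 8.73 in ZMYND8 KD. Within each experiment the group with more ZMYND8 was higher, and the knockdown libraries lay at the parental level. KD control had less ZMYND8 and more RCAN2 than parental, but in that comparison ZMYND8 cannot be told apart from the experiment. Its log2 fold change was 5.78 ± 0.25 in overexpression and −4.08 ± 0.26 in knockdown (adjusted p = 4.94e-11 and 1.12e-07), and their difference was 9.86 ± 0.36.

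MAF, a bZIP transcription factor (chr16:79585843-79600737), was read at 38.1 and 42.0 normalized counts in parental, 414 and 423 in ZMYND8 OE, 13.5 and 14.6 in KD control, and 1.93 and 0 in ZMYND8 KD. It rose by 3.38 ± 0.21 on the log2 scale in overexpression and fell in knockdown (adjusted p = 4.80e-04). With 2 counts in all in the knockdown libraries, its level there was 14.5-fold lower than in KD control, with an exact 95% counting interval of 3.68 to 125-fold.

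ELFN1, a leucine-rich repeat protein that organises synapses (chr7:1688119-1747954), was the most abundant named gene of the group. Its normalized counts were 107 and 109.5 in parental, 2271 and 2030.3 in ZMYND8 OE, 1119 and 1092 in KD control, and 532 and 508 in ZMYND8 KD. The 2 knockdown libraries stayed well above the parental ones and had less ZMYND8, again across experiments that stood apart. The log2 fold changes were 4.31 ± 0.10 and −1.09 ± 0.08 (adjusted p = 6.34e-14 and 2.99e-07).

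BRINP1, a neural protein that restrains the cell cycle (chr9:119153458-119369435), was read at 80.9 and 93.9 in parental, 350.4 and 424 in ZMYND8 OE, 213 and 198 in KD control, and 91.7 and 83.5 in ZMYND8 KD, all in normalized counts. Again the parental and knockdown libraries lay at the same level, with overexpression highest. Its effects were 2.14 ± 0.16 and −1.23 ± 0.16 on the log2 scale (adjusted p = 2.85e-08 and 8.22e-05).

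BHLHA15, a transcription factor of secretory cells (chr7:98211439-98215457), was unlike these in that both overexpression libraries (214 and 188 normalized counts) lay below both KD control libraries (585 and 495). The parental libraries had 58.3 and 70.4 and the knockdown libraries 208 and 161. Within each experiment the groups did not overlap, and the effects were 1.64 ± 0.18 and −1.55 ± 0.15 (adjusted p = 2.25e-06 and 5.45e-06). Another gene lies on the other strand over 25.6% of its exons, so its counts are uncertain without a known strand setting. PIFO, a protein of primary cilium disassembly (chr1:111346600-111353013), had effects of 1.36 ± 0.23 and −1.54 ± 0.28 (adjusted p = 1.44e-04 and 9.96e-04), with 42.0 to 42.8 normalized counts in parental, 106 to 112 in ZMYND8 OE, 46.2 to 50.2 in KD control and 12.6 to 20.3 in ZMYND8 KD.

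Several receptors and secreted signals stood in the same group, named here after their values were seen. CALCB, which encodes a calcitonin gene-related peptide, had 3.91 to 8.33 normalized counts in parental, 1209 to 1229 in ZMYND8 OE, 32.9 to 39.4 in KD control and 12.6 to 22.2 in ZMYND8 KD. GRM8, a metabotropic glutamate receptor, had effects of 3.26 ± 0.19 and −1.41 ± 0.28 (adjusted p = 1.28e-09 and 0.0018). CHRM4, a muscarinic acetylcholine receptor, had effects of 2.55 ± 0.23 and −1.02 ± 0.29 (adjusted p = 1.81e-07 and 0.019). DLK1, a Delta-like protein of immature adrenal and neuronal cells, was at 90.7 to 147 normalized counts in ZMYND8 OE and at 4.76 or less in every other library, with 0 in both knockdown libraries, so its knockdown effect rests on few reads.

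The 100 genes that were lower in overexpression and higher in knockdown were the largest of the 4 classes. They held 56 protein-coding genes and 37 lncRNAs, so lncRNAs made up 37% of them. Among all tested genes with a mean above 20 lncRNAs made up 15.4%, and in the other classes 14.8% (higher, then lower), 8.62% (higher in both) and 3.57% (lower in both). The median log2 fold changes were −2.06 in overexpression and 1.33 in knockdown, or −2.01 and 1.33 with genes lacking any count in a group at their bound. Overexpression moved 81 of the 100 further than knockdown did.

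**Figure D2:**
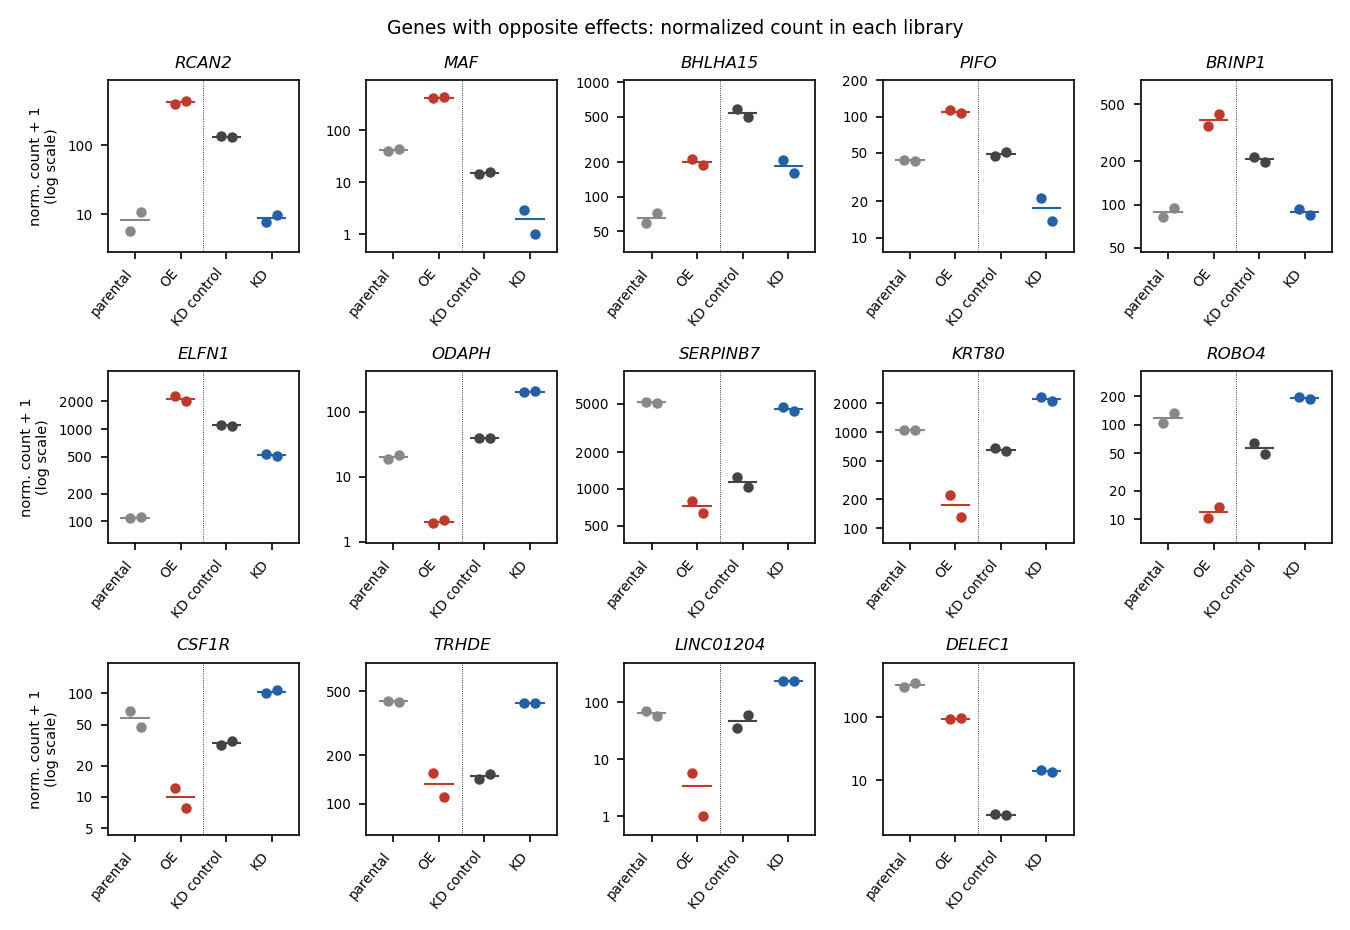
Normalized count plus 1 (log axis) of the 14 named genes with opposite effects in each of the 8 libraries; points are libraries, bars are the means of 2 libraries, and a dotted line parts the 2 experiments. The first 6 genes rise from parental to OE and fall from KD control to KD, and the other 8 do the reverse.

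SERPINB7, a serine protease inhibitor (chr18:63752935-63805376), was read at 5173 and 5059.6 normalized counts in parental, 798 and 637 in ZMYND8 OE, 1262 and 1028 in KD control, and 4702 and 4343 in ZMYND8 KD. The parental and knockdown libraries lay near each other and far above the other 4. The log2 fold changes were −2.83 ± 0.10 and 1.98 ± 0.09 (adjusted p = 4.64e-12 and 6.06e-09), with a difference of −4.81 ± 0.14. KRT80, a type II keratin (chr12:52168996-52192014), was read at 1049 and 1046 in parental, 222 and 129 in ZMYND8 OE, 681 and 633 in KD control, and 2325 and 2105 in ZMYND8 KD. Its order of groups was the same within each experiment, with effects of −2.56 ± 0.15 and 1.75 ± 0.13 (adjusted p = 1.58e-09 and 2.55e-07).

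Surface receptors and enzymes followed. ROBO4, a guidance receptor best known from endothelium (chr11:124883691-124898500), was read at 102 and 131 normalized counts in parental, 9.39 and 12.6 in ZMYND8 OE, 63.5 and 47.5 in KD control, and 196 and 185 in ZMYND8 KD. Its effects were −3.41 ± 0.28 and 1.78 ± 0.21 (adjusted p = 7.07e-08 and 2.62e-05). The 3 tested endothelial and blood markers did not share this pattern, since overexpression called PECAM1 and VWF lower and KDR higher, and knockdown called PECAM1 lower and neither of the others. CSF1R, the receptor of a macrophage growth factor (chr5:150053291-150113372), was at 66.6 and 46.0 in parental, 11.3 and 6.89 in ZMYND8 OE, 30.8 and 33.8 in KD control, and 99.4 and 107 in ZMYND8 KD. The 2 experiments again did not overlap between their groups, at −2.58 ± 0.33 and 1.67 ± 0.25 (adjusted p = 9.99e-06 and 2.26e-04). TRHDE, the ectoenzyme that degrades thyrotropin-releasing hormone (chr12:72087266-72670758), had near mirror levels of 437 and 426 in parental, 153 and 109 in ZMYND8 OE, 141 and 153 in KD control, and 425 and 422 in ZMYND8 KD. Its effects of −1.71 ± 0.15 and 1.53 ± 0.15 were of like size (adjusted p = 1.44e-07 and 3.80e-06).

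ODAPH, an extracellular matrix protein of enamel maturation (chr4:75556048-75565871), was nearly lost in overexpression. Its counts were 17.8 and 20.5 in parental, 0.939 and 1.15 in ZMYND8 OE, 38.5 and 38.4 in KD control, and 199 and 203 in ZMYND8 KD, all normalized. The overexpression libraries held 2 raw counts in all, which puts them 18.7-fold below parental with an exact 95% counting interval of 4.81 to 160-fold. In knockdown the gene rose by 2.38 ± 0.20 on the log2 scale (adjusted p = 1.02e-06).

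Of the lncRNAs, LINC01204 (chrX:45505388-45632121) was read at 70.2 and 55.7 normalized counts in parental, 4.70 and 0 in ZMYND8 OE, 34.6 and 58.5 in KD control, and 232 and 231 in ZMYND8 KD. It thus fell in overexpression and rose in knockdown (log2 −4.54 ± 0.53 and 2.31 ± 0.28, adjusted p = 3.01e-06 and 4.15e-05). DELEC1 (chr9:114850968-115402644) had 299.8 and 351 in parental, 92.1 and 95.3 in ZMYND8 OE, 1.92 and 1.83 in KD control, and 13.5 and 12.6 in ZMYND8 KD. Its levels in the knockdown experiment lay far below those in the overexpression experiment, and its knockdown effect of 2.72 ± 0.48 (adjusted p = 7.70e-04) rests on 4 raw counts in the KD control libraries. Named after their values were seen, LINC00973, LINC00460 and MYOSLID each fell in overexpression, at −3.79 ± 0.29, −3.59 ± 0.27 and −3.80 ± 0.29, and rose in knockdown, at 1.48 ± 0.18, 1.65 ± 0.19 and 1.16 ± 0.17, on the log2 scale.

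Matrix and adhesion genes mostly had opposite signs in the 2 experiments, but only 3 of 30 were called in both with opposite effects. Of the 30 tested members, 24 were called lower in overexpression and 0 higher, 3 were called higher in knockdown and 1 lower, and 25 had opposite signs. Over all genes tested, 6.45% were called lower and 10.3% higher in overexpression, and 1.17% higher and 0.57% lower in knockdown. Opposite signs were held by 56.6% of tested genes with a mean above 20. By the wider rule 16 of 30 were lower in overexpression and higher in knockdown, against 6.49% of all genes tested. The median log2 fold change of the list was −1.57 in overexpression and 0.36 in knockdown, against 0.03 and −0.01 over all genes tested. COL6A3, a chain of collagen VI (chr2:237324003-237414207), was read at 10232 and 11215 normalized counts in parental, 472 and 380.1 in ZMYND8 OE, 2110.0 and 1884 in KD control, and 4992 and 4388 in ZMYND8 KD. Its effects were −4.65 ± 0.10 and 1.23 ± 0.08 (adjusted p = 4.08e-14 and 1.54e-07). LOX, the enzyme that cross-links collagen (chr5:122063195-122078413), was at 2227 and 2103 in parental, 817 and 699 in ZMYND8 OE, 796 and 732 in KD control, and 1813 and 1717 in ZMYND8 KD. The overexpression and KD control libraries of LOX lay at the same level, as did, more loosely, the parental and knockdown libraries.

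DCN, the proteoglycan decorin (chr12:91140484-91183217), had effects of −1.29 ± 0.24 and 1.23 ± 0.26 (adjusted p = 2.89e-04 and 0.0028). Without ZMYND8 KD replicate 2 its knockdown effect was 0.75 with an adjusted p of 0.0565, past neither threshold. Abundant matrix genes likewise fell in overexpression and rose in knockdown, with smaller knockdown effects that stayed under the fold threshold. COL1A1, the main chain of collagen I, changed by −1.78 ± 0.07 and 0.51 ± 0.06, THBS1 (thrombospondin 1) by −2.44 ± 0.06 and 0.75 ± 0.06, TNC (tenascin C) by −1.70 ± 0.06 and 0.85 ± 0.06, and CD44, the hyaluronan receptor, by −2.56 ± 0.10 and 0.38 ± 0.09, each with an adjusted p below the threshold in both experiments. POSTN, a matrix protein of the same list, moved otherwise and is described with the genes that fell in both.

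Targets of TGF-beta and of the coactivator YAP, a pathway pair active in mesenchymal cells, had opposite signs in 15 of 20 tested. The share was 56.6% among tested genes with a mean above 20, and 1 of the 20 was called in both with opposite effects. Of 20 tested, 11 were called lower in overexpression and 0 higher, 2 were called higher in knockdown and 0 lower, and 11 were lower in overexpression and higher in knockdown by the wider rule. Among all genes tested, 6.45% were called lower in overexpression, 1.17% higher in knockdown, and 6.49% were lower then higher by the wider rule. The median log2 fold change of the 20 targets was −1.18 in overexpression and 0.30 in knockdown. ANKRD1, a cardiac and muscle ankyrin repeat protein that serves as a YAP readout (chr10:90912096-90921087), was read at 429 and 404 normalized counts in parental, 137 and 66.6 in ZMYND8 OE, 3827 and 3445 in KD control, and 8283 and 8208 in ZMYND8 KD. The 2 control groups themselves stood far apart. Within each experiment ANKRD1 changed by −1.99 ± 0.18 and 1.18 ± 0.10 (adjusted p = 1.78e-07 and 8.30e-07). TGFBI, a TGF-beta induced matrix protein, changed by −1.21 ± 0.07 and 0.93 ± 0.07, and CCN1, a matricellular YAP target, by −1.96 ± 0.13 and 0.44 ± 0.12. F3, tissue factor, was called in knockdown alone, at 1.13 ± 0.13, with −0.91 ± 0.15 in overexpression. TGFB2, a ligand of the pathway that was named after its values were seen, changed by −2.72 ± 0.13 and 1.20 ± 0.07, and is uncertain in that another gene on its strand lies over 22.7% of its exons.

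Promoters of the classes were read from RefSeq sequences on GRCh38.p14 that run from 250 bases before to 50 bases after each gene's start. A promoter was found by symbol for 56 of the 100 genes lower in overexpression and higher in knockdown, 19 of the 27 of the reverse class, 37 of the 58 higher in both, 22 of the 28 lower in both, and 13466 of the 22619 genes tested. The letters of the AP-1 motif, TGANTCA, on either strand, were held by 14 of the 56 promoters (25%), against 690 of the 13466 (5.1%) among genes tested and 2120 of the 27305 in the RefSeq table (7.8%). They were held by 1 of 19, 2 of 37 and 3 of 22 promoters of the other classes. The letters of the TEAD motif, GGAATG, on either strand, where TEAD is the DNA-binding partner of YAP, were held by 14 of the 56 (25%), against 11.2% among genes tested and 14% in the table, and by 0 of 19, 3 of 37 and 5 of 22 in the other classes. Of the 56 promoters, 6 held both motifs and 22 held either. These are descriptions of letters near the start site and not of bound factors. The retinoic acid receptor core site AGGTCA was held by 10.7% of the 56 and by 10.2% of promoters of genes tested. The other motifs searched also differed in this class, with the SP1 letters GGGCGG in 33.9% against 66.2% of promoters of genes tested and the E-box letters CANNTG in 76.8% against 61.6%. The GC-rich SP1 letters were thus rarer there, and the part of base composition in the AP-1 and TEAD shares was not tested.

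Promoters of 3 genes that fell with overexpression and rose with knockdown show these letters, with matches to the AP-1 or TEAD motif in capitals and each written 5′ to 3′ on the gene's strand. ANKRD1 is shown for its pair of TEAD matches beside an AP-1 match (chr10:90921038-90921337, minus strand), ODAPH for its adjacent AP-1 matches close to the start (chr4:75555816-75556115, plus strand), and CSF1R for a single AP-1 match at a short distance from the start (chr5:150113316-150113615, minus strand).
ANKRD1: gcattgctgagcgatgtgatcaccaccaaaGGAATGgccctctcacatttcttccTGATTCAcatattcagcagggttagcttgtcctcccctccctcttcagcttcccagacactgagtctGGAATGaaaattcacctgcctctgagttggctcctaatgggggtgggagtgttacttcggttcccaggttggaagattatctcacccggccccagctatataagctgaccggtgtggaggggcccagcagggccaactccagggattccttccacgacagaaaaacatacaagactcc
ODAPH: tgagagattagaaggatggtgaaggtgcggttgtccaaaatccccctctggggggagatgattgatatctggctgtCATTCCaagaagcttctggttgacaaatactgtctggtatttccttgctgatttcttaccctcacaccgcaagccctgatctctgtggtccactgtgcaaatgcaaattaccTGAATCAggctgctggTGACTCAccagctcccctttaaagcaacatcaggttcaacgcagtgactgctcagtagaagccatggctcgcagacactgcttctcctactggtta
CSF1R: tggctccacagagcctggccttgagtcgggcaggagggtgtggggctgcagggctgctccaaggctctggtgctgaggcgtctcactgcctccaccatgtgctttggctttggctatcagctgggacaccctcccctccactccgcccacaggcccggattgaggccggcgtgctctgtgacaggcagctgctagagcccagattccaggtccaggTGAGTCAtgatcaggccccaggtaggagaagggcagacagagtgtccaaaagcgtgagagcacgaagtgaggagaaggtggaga

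**Figure D3:**
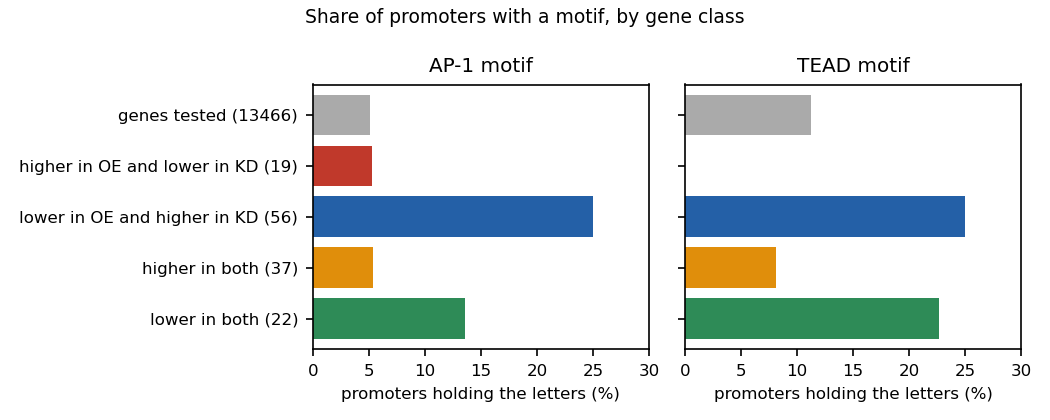
Percent of 300-base promoters that hold the AP-1 letters (left) or the TEAD letters (right) in each class, with the number of promoters found in brackets. The class lower in overexpression and higher in knockdown reaches 25% in both panels, against 5.1% and 11.2% of promoters of genes tested.

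The AP-1 genes themselves were not uniform. FOSL1, an AP-1 subunit that marks mesenchymal neuroblastoma cells, changed by −1.76 ± 0.10 in overexpression and 0.67 ± 0.08 in knockdown, and JUN by −0.81 ± 0.06 and 0.25 ± 0.06. FOS went the other way, at 1.72 ± 0.13 and −0.39 ± 0.12, with adjusted p below 0.05 in both experiments for all 3. Among 17 tested transcription factors of the mesenchymal state, 6 were called lower and 2 higher in overexpression and 0 in knockdown in either direction, and the wider rule gave 2 lower then higher, 1 higher then lower and 3 lower in both. Among all genes tested, 6.45% were called lower and 10.3% higher in overexpression. The wider rule gave 6.49%, 3.41% and 3.92% of all genes in the same order. PRRX1, a homeobox factor of that state, was among those that fell in both, at −2.40 ± 0.06 and −0.98 ± 0.06.

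Neuronal and catecholamine genes made up the other side of the difference, mainly through overexpression. Of 10 tested catecholamine genes, 8 were called higher in overexpression and 0 lower, and 0 were called in knockdown in either direction. The called shares of all genes tested were 10.3% higher and 6.45% lower in overexpression, and 1.17% higher and 0.57% lower in knockdown. By the wider rule 5 of the 10 were higher in overexpression and lower in knockdown, against 3.41% of all genes. DBH, which makes noradrenaline from dopamine, was read at 309 and 332 normalized counts in parental, 1501 and 1529.6 in ZMYND8 OE, 1859 and 2148 in KD control, and 1010.5 and 1191 in ZMYND8 KD. It changed by 2.24 ± 0.10 and −0.86 ± 0.09, and its difference of 3.10 ± 0.13 was called. MAOB, a monoamine oxidase, changed by 3.43 ± 0.10 and −0.27 ± 0.08, and SLC6A2, the noradrenaline transporter, by 2.72 ± 0.12 and −0.35 ± 0.11. MAOA, the other monoamine oxidase, was higher in both at 2.26 ± 0.09 and 0.35 ± 0.07.

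Of 33 tested synaptic vesicle and secretory genes, 21 were called higher in overexpression and 1 lower, and 10 were higher in overexpression and lower in knockdown by the wider rule. For this list and the next 3, the shares of all genes tested were 10.3% called higher and 6.45% lower in overexpression. By the wider rule 3.41% of all genes were higher then lower. CPLX1, a complexin that clamps vesicle fusion, changed by 5.88 ± 0.09 and −0.24 ± 0.06, SYP (synaptophysin) by 4.76 ± 0.12 and −0.34 ± 0.09, and RAB3C, a vesicle GTPase, by 3.93 ± 0.09 and −0.65 ± 0.07. Of 20 genes of the neuronal cytoskeleton and growth, 15 were called higher in overexpression and 1 lower, and 5 were higher then lower by the wider rule, among them the neurofilament NEFL at 4.65 ± 0.09 and −0.39 ± 0.07. Of 49 tested ion channels and receptors, 32 were called higher and 3 lower in overexpression. By the wider rule 7 were higher then lower, 4 lower then higher and 3 higher in both, against 3.41%, 6.49% and 2.35% of all genes. The knockdown medians of these 3 lists were −0.19, −0.14 and 0, so knockdown effects of opposite sign were small where present. Among 15 adrenergic transcription factors, 8 were called higher and 1 lower in overexpression, and 4 were higher then lower, namely GATA2 (3.99 ± 0.07 and −0.51 ± 0.06), HAND1 (4.50 ± 0.09 and −0.23 ± 0.06), HAND2 and PHOX2A.

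Of 28 tested genes of the retinoic acid response, 10 were called higher and 5 lower in overexpression, and 6 were higher in overexpression and lower in knockdown by the wider rule. The shares of all genes tested were 10.3%, 6.45% and 3.41% in that order. RET, the receptor tyrosine kinase that ATRA induces in neuroblastoma cells, was at 6107 and 6655 normalized counts in parental, 102536 and 117898 in ZMYND8 OE, 52275 and 59172 in KD control, and 36136 and 41081 in ZMYND8 KD. It changed by 4.11 ± 0.09 and −0.53 ± 0.08. NTRK2, a neurotrophin receptor, changed by 5.76 ± 0.13 and −0.29 ± 0.09. TGM2, a transglutaminase induced by retinoic acid, fell in both at −2.62 ± 0.07 and −0.25 ± 0.07, and CYP26B1, which clears retinoic acid, rose in both at 1.94 ± 0.06 and 0.22 ± 0.06.

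**Figure D4:**
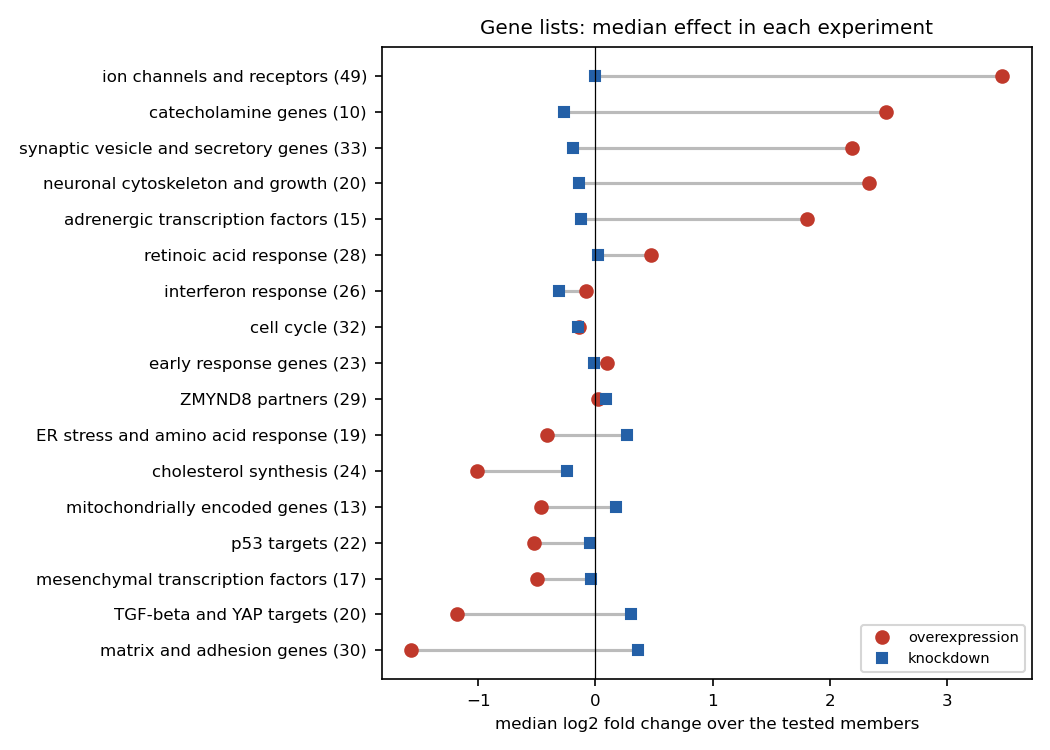
Median log2 fold change over the tested members of each gene list (number of members in brackets) in overexpression (circles) and knockdown (squares). Matrix and adhesion genes and TGF-beta and YAP targets lie at −1.57 and −1.18 in overexpression and at 0.36 and 0.30 in knockdown, while cholesterol synthesis lies below 0 in both at −1.01 and −0.24.

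The 58 genes higher in both experiments comprised 52 protein-coding genes and 5 lncRNAs, with median log2 fold changes of 2.22 in overexpression and 1.41 in knockdown. For 33 of the 58 the difference of effects had an adjusted p of at least 0.05, and for 22 it was called, so the rise was often of unequal size.

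NTRK3, the receptor of neurotrophin 3 (chr15:87859751-88256768), was read at 28.5 and 17.6 normalized counts in parental, 138 and 129 in ZMYND8 OE, 120.2 and 122 in KD control, and 424 and 393 in ZMYND8 KD. Both treated groups stood above their own controls without overlap, and the overexpression libraries lay at the KD control level. The effects were 2.55 ± 0.22 and 1.75 ± 0.16 (adjusted p = 1.11e-07 and 2.57e-06), and their difference of 0.80 ± 0.28 stayed under the fold threshold, though it was 1.16 without parental replicate 1. STC2, the secreted glycoprotein stanniocalcin 2 (chr5:173314713-173329503), was at 113 and 89.0 in parental, 671 and 715 in ZMYND8 OE, 622 and 554 in KD control, and 1547 and 1519 in ZMYND8 KD. Its effects of 2.79 ± 0.12 and 1.38 ± 0.09 (adjusted p = 4.45e-11 and 1.54e-07) differed by 1.41 ± 0.15, which was called. PPM1H, a protein phosphatase (chr12:62643994-62935150), was at 102 and 115 in parental, 375 and 369.8 in ZMYND8 OE, 26.0 and 27.4 in KD control, and 96.5 and 68.9 in ZMYND8 KD. It rose by like amounts of 1.77 ± 0.17 and 1.63 ± 0.22, with a difference of 0.14 ± 0.29 (adjusted p = 0.73).

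The sialyltransferases of ganglioside synthesis ST8SIA1 and ST8SIA5 both stood here. ST8SIA5 (chr18:46667821-46759257) was read at 2.38 and 2.93 normalized counts in parental, 339 and 311 in ZMYND8 OE, 6.73 and 7.31 in KD control, and 25.1 and 30.1 in ZMYND8 KD. It rose in both, by 6.86 ± 0.30 and 1.95 ± 0.32 (adjusted p = 4.77e-11 and 4.21e-04), and far more in overexpression. ST8SIA1, which makes the ganglioside GD3 (chr12:22063773-22437041), was at 5.95 and 6.85 in parental, 415 and 384 in ZMYND8 OE, 0 and 0 in KD control, and 4.83 and 2.91 in ZMYND8 KD. Its knockdown level was at least 1.38-fold higher than that of KD control (against 3 counts per library), a rise that rests on 8 raw counts. Its knockdown call (adjusted p = 0.0065) was lost without KD control replicate 1, KD control replicate 2 or ZMYND8 KD replicate 1, at adjusted p of 0.0555, 0.0647 and 0.0603.

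CDH23, a cadherin of hair cell tip links (chr10:71396920-71815947), was read at 5.95 and 6.85 normalized counts in parental, 217 and 251 in ZMYND8 OE, 31.7 and 50.2 in KD control, and 126 and 132 in ZMYND8 KD. It rose by 5.16 ± 0.30 and 1.65 ± 0.22 (adjusted p = 1.13e-09 and 8.59e-05), with overexpression highest of the 4 groups. LAMA1, a laminin chain, was at 10.7 and 6.85 in parental, 249 and 276 in ZMYND8 OE, 46.2 and 56.6 in KD control, and 101 and 127 in ZMYND8 KD. It rose by 4.91 ± 0.27 and 1.15 ± 0.21, though without ZMYND8 KD replicate 2 its knockdown effect was 0.97, under the fold threshold. The lncRNAs FLG-AS1 and ENSG00000235609 rose by 1.08 ± 0.16 and 1.51 ± 0.16 and by 1.72 ± 0.23 and 2.19 ± 0.15. Another gene on the same strand lies over 27.7% of the exons of ENSG00000235609, which makes its counts uncertain.

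CACNA2D3, a calcium channel subunit (chr3:54122547-55074557), was the member of the ion channel and receptor list called in both, with 39.3 and 29.3 normalized counts in parental, 71.4 and 79.2 in ZMYND8 OE, 9.62 and 2.74 in KD control, and 44.4 and 34.9 in ZMYND8 KD. Its effects were 1.14 ± 0.31 and 2.68 ± 0.42, so knockdown moved it further, and the difference was −1.54 ± 0.54 (adjusted p = 0.029). The difference was not called without parental replicate 1 (−1.33), ZMYND8 OE replicate 1 (−1.46), KD control replicate 2 (−0.90) or ZMYND8 KD replicate 1 (−1.36). Its overexpression call was lost without parental replicate 2 (0.95, adjusted p = 0.0526). Named after their values were seen, KIT, a receptor tyrosine kinase, rose by 2.37 ± 0.19 and 1.42 ± 0.20, H19, an imprinted lncRNA, by 4.04 ± 0.24 and 1.09 ± 0.26, and AHR, the aryl hydrocarbon receptor, by 2.96 ± 0.39 and 3.48 ± 0.46. AHR is uncertain, since another gene on its strand lies over 29.5% of its exons and its mean was 29.4 normalized counts. YTHDC1, also in this class, has all of its exon sequence repeated on alternate contigs of GRCh38, which can take its reads, and its overexpression libraries ranged from 131 to 372 normalized counts.

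**Figure D5:**
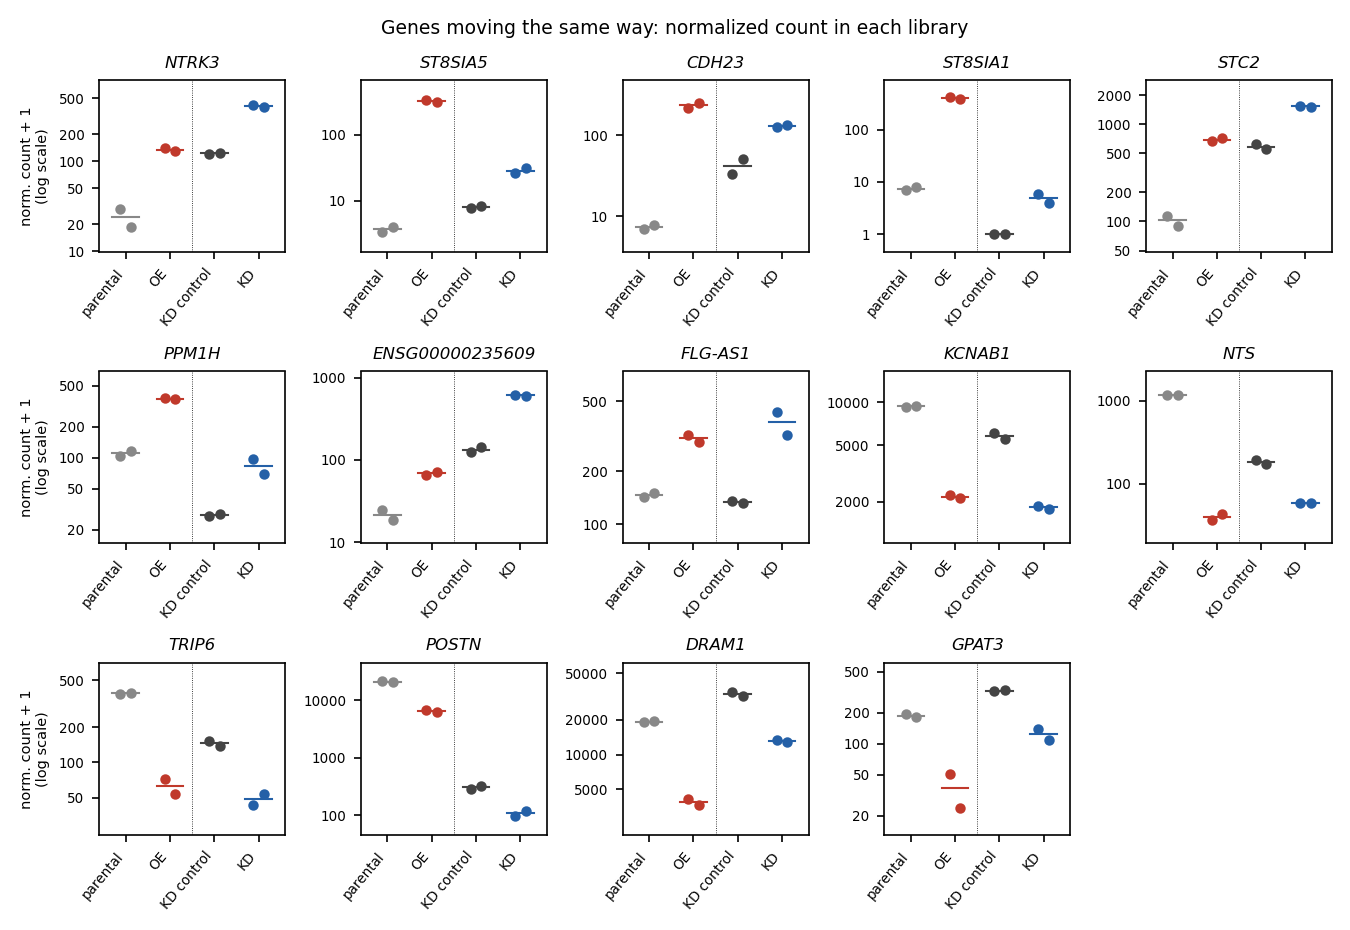
Normalized count plus 1 (log axis) of the 14 named genes moving the same way, in each of the 8 libraries; points are libraries, bars are the means of 2 libraries, and a dotted line parts the 2 experiments. The first 8 genes are higher in OE and in KD than in their own controls and the other 6 are lower in both.

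The 28 genes lower in both experiments comprised 27 protein-coding genes and 1 lncRNA, with median log2 fold changes of −2.02 and −1.21. They were the most abundant class, at a median of 367 normalized counts against 55.9 (higher, then lower), 85.8 (lower, then higher) and 79.7 (higher in both). For 11 of the 28 the difference of effects had an adjusted p of at least 0.05 and for 9 it was called.

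KCNAB1, a potassium channel beta subunit (chr3:156037701-156539138), was read at 9277 and 9449 normalized counts in parental, 2212 and 2137 in ZMYND8 OE, 6073 and 5488 in KD control, and 1872 and 1782 in ZMYND8 KD. Both treated groups dropped to a like level from controls that were themselves not far apart, with effects of −2.11 ± 0.06 and −1.66 ± 0.06 (adjusted p = 4.23e-13 and 6.45e-10). NTS, the neuropeptide neurotensin (chr12:85874295-85882992), was at 1176 and 1191 in parental, 35.7 and 42.5 in ZMYND8 OE, 191 and 172 in KD control, and 57.9 and 58.2 in ZMYND8 KD. It fell in both, with effects of −4.93 ± 0.14 and −1.64 ± 0.14 (adjusted p = 6.26e-13 and 1.68e-06), and the difference of −3.28 ± 0.21 was called.

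POSTN, the matrix protein periostin (chr13:37562583-37598844), was read at 21523 and 20968 normalized counts in parental, 6805 and 6211 in ZMYND8 OE, 281 and 323 in KD control, and 94.6 and 117 in ZMYND8 KD. The controls of the 2 experiments differed far more than either effect. Its effects of −1.71 ± 0.06 and −1.51 ± 0.12 (adjusted p = 8.68e-12 and 6.43e-07) differed by −0.19 ± 0.14 (adjusted p = 0.28). DRAM1, a lysosomal membrane protein of autophagy that p53 induces (chr12:101877580-102012130), was at 18934 and 19292 in parental, 4161 and 3658 in ZMYND8 OE, 34324 and 31673 in KD control, and 13405 and 12823 in ZMYND8 KD. It had effects of −2.29 ± 0.07 and −1.33 ± 0.06 on the log2 scale, and the difference of −0.96 ± 0.09 lay just under the fold threshold, passing it without KD control replicate 1 (−1.02) or without ZMYND8 OE replicate 1 (−1.06).

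TRIP6, a LIM-domain adhesion adaptor (chr7:100867387-100873454), was at 381 and 391 normalized counts in parental, 71.4 and 52.8 in ZMYND8 OE, 152 and 138 in KD control, and 42.5 and 52.4 in ZMYND8 KD, with effects of −2.62 ± 0.18 and −1.61 ± 0.19 (adjusted p = 8.59e-09 and 3.06e-05). Its difference of −1.01 ± 0.27 was called, and lay between −0.99 and −0.82, under the threshold, without parental replicate 2, ZMYND8 OE replicate 2, KD control replicate 2 or ZMYND8 KD replicate 2. GPAT3, an enzyme of triglyceride synthesis (chr4:83535914-83605875), was at 193 and 179 in parental, 49.8 and 23.0 in ZMYND8 OE, 321 and 331 in KD control, and 137 and 108 in ZMYND8 KD, with effects of −2.31 ± 0.25 and −1.41 ± 0.21. Its difference of −0.90 ± 0.33 was not called and was −1.07 without ZMYND8 KD replicate 2 and −1.60 without ZMYND8 OE replicate 1, past the threshold in both. Named after their values were seen, HAS2, the hyaluronan synthase, had effects of −2.03 ± 0.09 and −1.06 ± 0.09, MGP (matrix Gla protein) by −1.63 ± 0.06 and −1.02 ± 0.06, and PTGS2, the inducible cyclooxygenase, by −1.76 ± 0.22 and −1.18 ± 0.18. NELFE and BFAR, also in this class, have all of their exon sequence repeated on alternate contigs, and NELFE was at 551 and 65.5 in the 2 parental libraries, so both are uncertain.

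Cholesterol synthesis genes were mostly lower in both experiments, and more so in overexpression. Of 24 tested genes, 12 were called lower in overexpression and 0 higher, and 0 were called in knockdown in either direction. The called shares of all genes tested were 6.45% lower and 10.3% higher in overexpression, and 0.57% lower and 1.17% higher in knockdown. By the wider rule 13 of 24 were lower in both, against 3.92% of all genes. Signs were opposite in 2 of the 24, against 56.6% of tested genes with a mean above 20. The medians were −1.01 in overexpression and −0.24 in knockdown. The difference was called lower for 6 of the 24, against 7.66% of all genes tested, with a median of −0.58. IDI1, the isopentenyl diphosphate isomerase, had effects of −1.11 ± 0.07 and −0.86 ± 0.07 with a difference of −0.24 ± 0.10 (adjusted p = 0.060), and SCD, a fatty acid desaturase under the same control, by −1.55 ± 0.05 and −0.59 ± 0.05.

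Interferon response genes split in overexpression. With the fold threshold dropped, 9 of the 26 tested were lower and 0 higher in knockdown, against 10.1% and 11.5% of all genes tested. Their knockdown median was −0.31, against −0.01 over all genes tested. Of 26 tested, 5 were called higher and 4 lower in overexpression, 1 lower and 0 higher in knockdown, and 8 were lower in both by the wider rule. Among all genes tested, 10.3% were called higher and 6.45% lower in overexpression, 0.57% lower in knockdown, and 3.92% were lower in both by the wider rule. IFIT1, which binds foreign RNA, changed by −0.83 ± 0.16 and −0.83 ± 0.19, and IFIT3 by −2.10 ± 0.07 and −0.52 ± 0.07. IFI44L was the member called in both, at −1.07 ± 0.31 and −1.17 ± 0.36 (adjusted p = 0.0084 and 0.031). Its overexpression call was lost without ZMYND8 OE replicate 1 (−0.58) and its knockdown call without KD control replicate 2 (−0.68), ZMYND8 KD replicate 1 (adjusted p = 0.106) or ZMYND8 KD replicate 2 (adjusted p = 0.144).

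Of 22 p53 targets, 7 were called lower in overexpression and 0 in knockdown in either direction, and by the wider rule 8 were lower in both and 4 lower then higher. For the lists of this paragraph, the shares of all genes tested were 10.3% called higher and 6.45% lower in overexpression. By the wider rule 3.92% of all genes were lower in both, 6.49% lower then higher and 2.35% higher in both. ZMAT3, an RNA-binding p53 target, had effects of −1.06 ± 0.05 and −0.52 ± 0.05, while TP53INP1 changed by −0.34 ± 0.05 and 0.55 ± 0.05. Genes of the endoplasmic reticulum stress and amino acid response were mixed as well, with 6 of 19 lower then higher, 2 higher in both and 3 lower in both by the wider rule. SLC7A11, the cystine transporter, changed by −2.35 ± 0.09 and 0.52 ± 0.07 and CHAC1, a glutathione-degrading target of ATF4, by −0.69 ± 0.13 and 0.99 ± 0.11, whereas XBP1, a factor of the unfolded protein response, fell in both, with effects of −0.72 ± 0.05 and −0.49 ± 0.05. Of 32 cell cycle genes, 1 was called in overexpression and 0 in knockdown, and of 23 early response genes 7 were called higher and 1 lower in overexpression and 0 in knockdown. Of 29 genes for known partners of ZMYND8, 2 were called higher in overexpression and 0 in knockdown, and 3 were lower then higher by the wider rule.

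Mitochondrially encoded genes had opposite signs in 13 of 13, with medians of −0.46 and 0.18, but 1 was called in overexpression and 0 in knockdown. Signs were opposite in 56.6% of all tested genes with a mean above 20. The summed level of the 13 overlapped between parental (1093 to 1627 CPM) and ZMYND8 OE (1275 to 1675). These genes share a single genome and are not separate observations. Markers of other cell types moved with the difference in part. For the lists of this paragraph, 6.45% of all genes tested were called lower and 10.3% higher in overexpression. In knockdown 0.57% were called lower and 1.17% higher. Of 5 tested epithelial markers, 3 were called lower in overexpression, among them KRT8 at −1.82 ± 0.08, which was 0.44 ± 0.08 in knockdown, and the summed level of the 7 markers was 439.9 to 443 CPM in parental, 193 to 253 in ZMYND8 OE, 357 to 414 in KD control and 371 to 420.0 in ZMYND8 KD. Of 6 tested Schwann and glial markers, ERBB3 and S100B were called higher in overexpression and 0 in knockdown. Of the endothelial and blood markers, PECAM1, an adhesion molecule of endothelium and platelets, was called lower in both, at −3.32 ± 0.40 and −1.12 ± 0.36. PECAM1 lost its knockdown call without any 1 of the 4 knockdown experiment libraries, at adjusted p of 0.0891 to 0.168. The part of other cell types in these results was not tested.

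Many genes set the difference through overexpression alone, and those whose overexpression groups stood furthest apart are given here. AJAP1, an adherens junction protein (chr1:4654609-4792534), was read at 4.76 and 0 normalized counts in parental, 2623 and 2852 in ZMYND8 OE, 258 and 299 in KD control, and 257 and 337 in ZMYND8 KD. It changed by 10.23 ± 0.28 in overexpression and by 0.09 ± 0.15 in knockdown (adjusted p = 0.73), and the knockdown libraries overlapped. COL26A1, a collagen (chr7:101362875-101559024), was at 4.76 and 6.85 in parental, 2206 and 2344 in ZMYND8 OE, 141 and 131 in KD control and 158 and 152 in ZMYND8 KD. FUT9, a fucosyltransferase of neural Lewis X antigens, and SMOC1, a secreted calcium-binding matrix protein, changed by 8.54 ± 0.29 and 9.77 ± 0.34 in overexpression, with knockdown effects of 0.54 ± 0.24 and 0.51 ± 1.01 that did not pass the test.

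In the other direction, SUCNR1, the succinate receptor (chr3:151873643-151884619), fell from 4398 and 4288 normalized counts in parental to 63.9 and 56.3 in ZMYND8 OE, with 88.5 and 48.4 in KD control and 49.2 and 54.3 in ZMYND8 KD. Its parental libraries thus stood alone above the other 6. SLC5A7, the choline transporter (chr2:107986523-108013994), was at 4068 and 4418 in parental, 170.0 and 150.4 in ZMYND8 OE, 565 and 621 in KD control, and 490.3 and 575 in ZMYND8 KD. SERPINB2, a plasminogen activator inhibitor, changed by −5.48 ± 0.35 in overexpression and 0.26 ± 0.33 in knockdown. SULT1B1, a sulfotransferase, changed by −4.76 ± 0.11 and 0.54 ± 0.15 (adjusted p = 5.69e-14 and 0.018), and its knockdown effect was under the fold threshold. Alternate contigs repeat 26.1% of the exon sequence of SULT1B1, and SERPINB2 shares part of its exons with another gene on its strand.

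A smaller set carried the difference through knockdown alone. With a knockdown call, a called difference and an overexpression adjusted p of at least 0.05, 48 genes were higher and 34 lower in knockdown. Named after their values were seen, AMMECR1 rose by 1.67 ± 0.07 in knockdown at 0.05 ± 0.07 in overexpression, SLC6A15, a neutral amino acid transporter, rose by 1.37 ± 0.06 at 0.13 ± 0.06, and FLRT2, a guidance and adhesion protein, rose by 1.62 ± 0.12 at 0.01 ± 0.08. THBD, thrombomodulin, rose by 2.12 ± 0.22 at −0.12 ± 0.16, and SERPINI1, neuroserpin, fell at −1.28 ± 0.13 with −0.13 ± 0.11.

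A list of 10 differentiation and stemness genes, chosen because they also served as qPCR targets, had 7 tested members, of which LAMA1 alone was called in both experiments. DRD2, a dopamine receptor, was read at 8.33 and 5.87 normalized counts in parental, 231 and 268 in ZMYND8 OE, 237 and 204 in KD control, and 144 and 175 in ZMYND8 KD. It rose by 5.13 ± 0.26 in overexpression and was −0.47 ± 0.16 in knockdown (adjusted p = 0.057), and its difference of 5.60 ± 0.32 was called. TUBB3, a neuronal tubulin, was 0.68 ± 0.18 and −0.08 ± 0.18, and its difference of 0.76 ± 0.25 was under the fold threshold, though 1.04 without ZMYND8 KD replicate 1. Another gene on its strand lies over 35.8% of the exons of TUBB3. SCN2A, a sodium channel, was −0.80 ± 0.05 and −0.25 ± 0.05, the same sign in both. REST, a repressor of neuronal genes, was −0.62 ± 0.05 and 0.10 ± 0.05, and SOX2, a stemness factor, −0.44 ± 0.16 and −0.06 ± 0.15. MAPT, which encodes tau, had 0 to 16.9 normalized counts, and 98.8% of its exon sequence is repeated on alternate contigs, so nothing can be read from its counts. NEUROG1, POU5F1 and NANOG had too few counts to be tested.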

How the data were processed

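Total RNA of 8 SK-N-SH libraries in 4 groups of 2 was sequenced. According to the study's methods, the authors trimmed reads with Trim_Galore at a Phred score of 25, aligned them to GRCh38 with Hisat2 and counted them with featureCounts on GENCODE annotation, and the authors deposited the raw counts per gene. The strand setting of the counting is not given in the sources used here. Gene length, in a further column of the table, was used only for an alternative. Symbols came from a GENCODE gene table.

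Genes were filtered with filterByExpr, scaled by TMM and fitted in a single edgeR 4.0.16 quasi-likelihood model over all 8 libraries (limma 3.58.1, R 4.3.3), without a block, with 2 libraries a group as in the labels. The SE of a log2 fold change was its size divided by the square root of F. Calls used a mean above 20, a log2 fold change of size 1 or more and an adjusted p below 0.05. CPM are counts scaled by library size to a common total. On simulated counts for 21318 genes, 200 of 200 genes made opposite and 200 of 200 made to move the same way were recovered. These genes all had a mean above 100, a fixed effect size above the fold threshold and a common dispersion. Recovery at lower means, smaller effects or wider spread was not tested. Genes at 0 in a group were given a bound at 3 counts per library, and intervals cover counting error only.

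The members and gene lists were chosen with earlier results of these data known. Named genes were, in each of the 4 classes, the 6 protein-coding genes and 2 lncRNAs with a mean above 50 and the largest gap between nearest libraries, taking the smaller gap of the 2 experiments, further the 4 genes a direction with the largest overexpression gap among differences without a knockdown call, the genes measured by qPCR, and list members called in both. Alternatives were DESeq2 1.42.0, other scalings and filters, a length trend, separate fits, a replicate block and leaving out each library. Values of some list members are not reported here.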

Additional observations from a re-analysis of the deposited data

How the results depend on the processing

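Among genes chosen by the naming rule, no called effect changed sign in any alternative. Values that were not called did so when a library was left out. The AJAP1 KD effect ranged from −0.12 (without ZMYND8 KD replicate 2) to 0.28 (without ZMYND8 KD replicate 1). The SUCNR1 KD effect ranged from −0.77 (without KD control replicate 2) to 0.095 (without KD control replicate 1). The SERPINB2 KD effect ranged from −0.079 (without KD control replicate 1) to 0.72 (without KD control replicate 2). The TUBB3 KD effect ranged from −0.37 (without ZMYND8 KD replicate 1) to 0.15 (without ZMYND8 KD replicate 2). The MAPT KD effect ranged from −2.39 (without ZMYND8 KD replicate 2) to 4.79 (without KD control replicate 2). The MAPT difference ranged from −3.28 (without KD control replicate 2) to 7.50 (without parental replicate 2). The IFI44L difference ranged from −0.60 (without ZMYND8 OE replicate 2) to 0.59 (without ZMYND8 OE replicate 1). The PPM1H difference ranged from −0.083 (without ZMYND8 KD replicate 2) to 0.40 (without ZMYND8 KD replicate 1). With a mean above 100 in place of 20, 2723 were the genes called for the difference, 56 had opposite effects (10 higher then lower, 46 lower then higher) and 43 moved the same way, of which 22 were higher in both. Without a fold threshold there were 10096 for the difference, 2239 opposite (771 and 1468) and 1418 the same way (531 higher and 887 lower in both), since fewer or more genes can then be called. DESeq2 called 14 genes higher in overexpression and lower in knockdown against 27, the cause was not tested, and 97 opposite and 60 the same way in all, of which 92 and 57 were shared with the values above. Leaving out each library in turn gave 108 to 144 opposite genes, 74 to 90 moving the same way and 3953 to 4216 for the difference. The group higher in overexpression and lower in knockdown ranged from 18 to 37.

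With the replicate block 139 genes had opposite effects and 91 moved the same way, of which 126 and 84 were shared with the fit without it, and the genes called for the difference were 4245. Deviations of libraries with the same number correlated at 0.018 in overexpression and 0.0503 in knockdown over 17704 genes, so no pairing was seen over genes at large. Shared handling that moved few genes would not be seen this way, and the labels do not state a pairing. With 2 libraries a group, genes of few counts such as ST8SIA1, DLK1 and DELEC1 are the least certain.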
